A study of Bos taurus with 4 samples.

Results

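Solute carriers are membrane proteins that move small molecules across the cell's membranes, among them amino acids, sugars, nucleotides, metals and ions. The SLC25 family sits mostly in the inner mitochondrial membrane and carries ADP, ATP, phosphate and metabolites. The SLC35 family feeds nucleotide-linked sugars and ATP into the Golgi and endoplasmic reticulum, SLC30 proteins move zinc out of the cytosol, and SLC39 proteins move it in. In an oocyte these proteins supply nutrients, energy substrates and zinc, and the length of a stored message's poly(A) tail is tied to whether it is translated. Members were all array probes whose platform gene symbol starts with SLC and a digit. There were 307 such genes with 415 probes, out of 15229 genes named on the array and 43794 bovine probes, of which 21790 carried a gene symbol. They fell into 65 SLC25 probes (37 genes), 28 SLC35 probes (21 genes), 35 zinc transporter probes (23 SLC30 and SLC39 genes) and 287 probes of 226 other SLC genes. The symbol rule also took in a few proteins that are not carriers, such as SLC4A1AP, a binding partner of an anion exchanger, and the scaffold genes NHERF1 and NHERF2, which the platform lists under older SLC names.

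The RNA came from 4 pools, each of 200 Holstein cow oocytes in the germinal vesicle stage, before maturation, stripped of cumulus cells and taken from slaughterhouse ovaries kept on ice. Each pool was parted on poly(A)-binding beads, and the fractions called A150 and A- were compared. Per the labels, A150 has tails of at least 150 nucleotides and A- has tails of at most 50 nucleotides. By these labels, RNA with tails between these lengths is in neither fraction, so a ratio near 0 is not an even split of a message. Both fractions of a pool were hybridised on 1 two-colour array, and the A150 dye was Cy5 for arrays 1 and 2 but Cy3 for arrays 3 and 4. Values are log2 ratios of A150 over A-, centred within each array, so that values above 0 mean a brighter A150 signal relative to the rest of the array. The ratios are given as mean ± SD over the 4 arrays, and the small number of arrays limits their precision. In pooled RNA, fewer oocytes with a message and less of it per oocyte cannot be told apart, and a ratio between the fractions is not a tail length.

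The labelled cell type was checked against its markers. All 25 probes of the 12 oocyte markers, among them GDF9, ZP3 and FIGLA, passed the signal filter described next. Of 25 probes of 18 cumulus and granulosa markers, 12 passed, where 44.4% of all bovine probes did. These 12 were of 8 genes: CYP19A1, GJA1, GREM1, INHBA, NR5A2, PTX3, STAR and VCAN. Probes of AMH, AMHR2, FOXL2, FSHR, FST and HSD3B1 were at background in both fractions throughout. The summed spot brightness of the cumulus and granulosa probes was 29583 to 46065 in A150 and 35419 to 64569 in A- over the 4 arrays. For the 25 oocyte marker probes it was 212757 to 265719 in A150 and 132293 to 141221 in A-. The spots were not background-subtracted, so all these sums include background. STAR, a cholesterol transport gene of steroid-making cells, cleared the background in every channel by 1 of its probes. The part of cumulus RNA in the ratios of the transporters was not tested.

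A spot was taken as above background when its brightness exceeded that of the channel's 153 negative-control spots by 2 SD over their mean. A probe passed the filter, and entered the test, when 3 or more arrays showed it above background in A150, in A- or in both. Of the 415 SLC probes, 178 (42.9%) of 148 genes passed, against 44.4% of all bovine probes and 46.1% of the other probes with a gene symbol. The share that passed was 50.8% for SLC25, 57.1% for SLC35, 48.6% for the zinc transporters and 39.0% for the other SLC genes. On single arrays, 33 to 260 SLC probes were above background in A150 and 74 to 198 in A-. The lowest of these counts was that of A150 on array 2, where only 9.96% of all bovine probes were above background. For 103 probes no channel of any array was above background, and 69 genes had only such probes. Another 63 probes were above background in A150 only and 19 in A- only, on at least 1 array. Only 13 SLC probes of 11 genes cleared the background in every one of the 8 channels, so most ratios rest in part on dim spots.

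**Figure D1:**
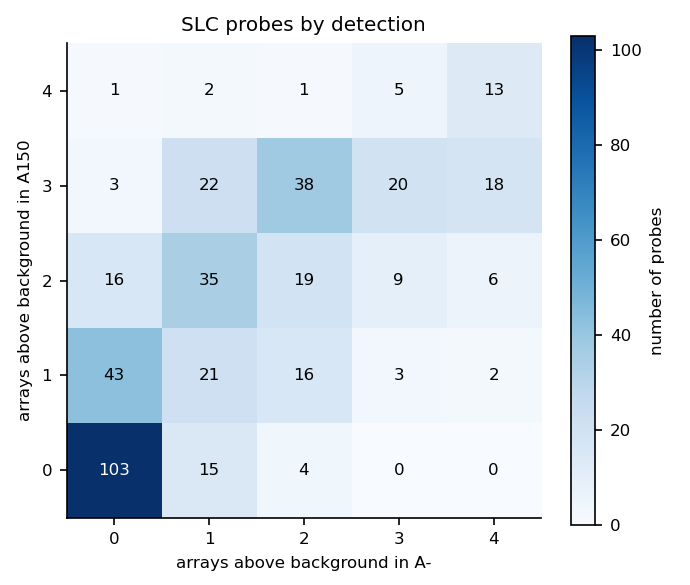
Number of SLC probes (colour and printed count) by the number of arrays, 0 to 4, on which the probe was above background in A150 (vertical axis) and in A- (horizontal axis). The corner at 0 and 0 holds 103 probes and the opposite corner holds the 13 probes that cleared it in all channels.

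The first comparison asked whether the transporter messages as groups stood toward the long-tailed or the unbound fraction. Their median differed from that of all bovine probes by less than the spread between arrays. Over all 415 probes, with no filter on signal, the median log2 ratio was -0.07, -0.03, 0.05 and 0.02 on arrays 1 to 4, or 0.00 ± 0.05 (SD, n = 4). For all bovine probes it was 0.00 ± 0.03. A positive mean ratio was found for 207 of the 415 probes (49.9%), against 48.8% of all bovine probes and 50.9% of the other probes with a gene symbol. Among the bovine probes that passed the filter the share was 48.2%.

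Mitochondrial carriers had a small positive median on every array, at 0.11, 0.07, 0.02 and 0.22, or 0.10 ± 0.08 (SD, n = 4), with 35 of 65 probes positive. Without normalization within arrays it was -0.19, where the median of all bovine probes was -0.34. Zinc transporters had a small negative median on every array, at -0.21, -0.02, -0.02 and -0.17, or -0.10 ± 0.10, with 11 of 35 probes positive. Within the zinc transporters the 14 SLC30 probes, for exporters from the cytosol, had medians of -0.39, -0.03, -0.14 and -0.96 (-0.38 ± 0.42), with a mean of -0.19 without array 4, and 4 of these probes passed the filter. The 21 SLC39 probes, for importers, had a median of -0.03 ± 0.12. The SLC35 medians were -0.19, 0.06, 0.25 and -0.40 (-0.07 ± 0.29), with no settled side, and their mean was 0.04 without array 4. The other SLC genes had -0.08, -0.05, 0.06 and 0.03 (-0.01 ± 0.07), with 149 of 287 probes positive, and their mean was 0.01 without array 1. These medians are descriptions without a test.

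The medians of the mitochondrial carriers and the zinc transporters each had 1 sign on all 4 arrays, so they necessarily kept it within each dye orientation. The SLC25 median was 0.09 over arrays 1 and 2 and 0.12 over arrays 3 and 4. The zinc transporter median was -0.12 and -0.09, and that of the other SLC genes -0.07 and 0.05. Among the 6 SLC25 probes bright in every channel, however, 2 had a positive mean and the median over arrays was -0.33, so the sign of the SLC25 median depends on which probes are read. The other SLC genes were also grouped by numbered family, after the usual cargo of each family, so single members can carry something else. SLC6A2, known as a noradrenaline transporter, counts with the amino acids, and SLC37A3, of a sugar phosphate exchanger family, with the remaining carriers. The medians were 0.02 ± 0.05 for amino acids (73 probes), -0.02 ± 0.12 for sugars and monocarboxylates (46 probes) and -0.08 ± 0.13 for ions (55 probes). Organic ions, nucleosides and vitamins (80 probes) had 0.02 ± 0.09, metals other than zinc (13 probes) -0.17 ± 0.24 and the remaining lipid, acetyl-CoA and other carriers (20 probes) 0.01 ± 0.22. Each of these medians is smaller than the spread between arrays.

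**Figure D2:**
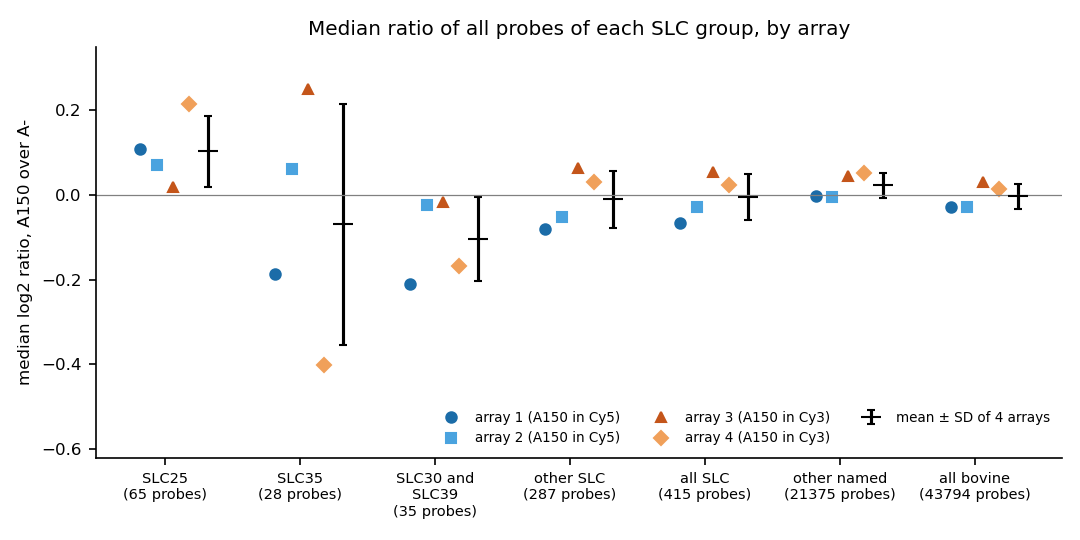
Median log2 ratio of A150 over A- (vertical axis) over all probes of each SLC group, of the other probes with a gene symbol and of all bovine probes, with no filter on signal. Points are the 4 arrays and the black mark is their mean ± SD. SLC25 lies above 0 and the zinc transporters below 0 on every array, by 0.22 or less, while SLC35 lies on both sides.

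The second comparison asked which transporter messages differed between the fractions. After adjustment over all 19453 probes that passed the filter, limma called 0 SLC probes toward A150 and 0 toward A- (adjusted p below 0.05). The background was 0% of all tested probes toward A150 and 0.0617% toward A-. Before adjustment, 10 SLC probes leaned to A150 with p below 0.05 (background 8.03%) and 7 to A- (background 5.45%), that is 5.62% and 3.93% of the 178. Both shares are below the background, and below the 10.3% and 4.43% found for the other tested probes with a gene symbol. Without array 1 the count toward A150 was 6. An unmoderated one-sample test called 0 SLC probes after adjustment, and limma on single channels without the pairing called 1 in each direction. The ratio was positive on all 4 arrays for 24 SLC probes (background 12%) and negative on all 4 for 19 (background 10.1%). A mean ratio of at least 2-fold was found for 14 probes on each side (background 11.1% toward A150 and 10.3% toward A-). Both sides together made 15.7% of the SLC probes tested, against 21.3% of all probes tested and 23.5% of the other tested probes with a gene symbol. By group these were 9 of 33 SLC25 probes, 8 of 16 SLC35 probes, 1 of 17 zinc transporter probes and 10 of 112 others. The share past 2-fold was thus lowest for the zinc transporters and highest for SLC35, where SLC35B1 counts by 2 probes. The groups also differ in signal, with 0 zinc transporter and 3 SLC35 probes above background in every channel. Whether signal sets this order was not tested. Named below are genes with 1 sign on all arrays, taken by their p, and genes chosen by name, none of which passed the test.

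**Figure D3:**
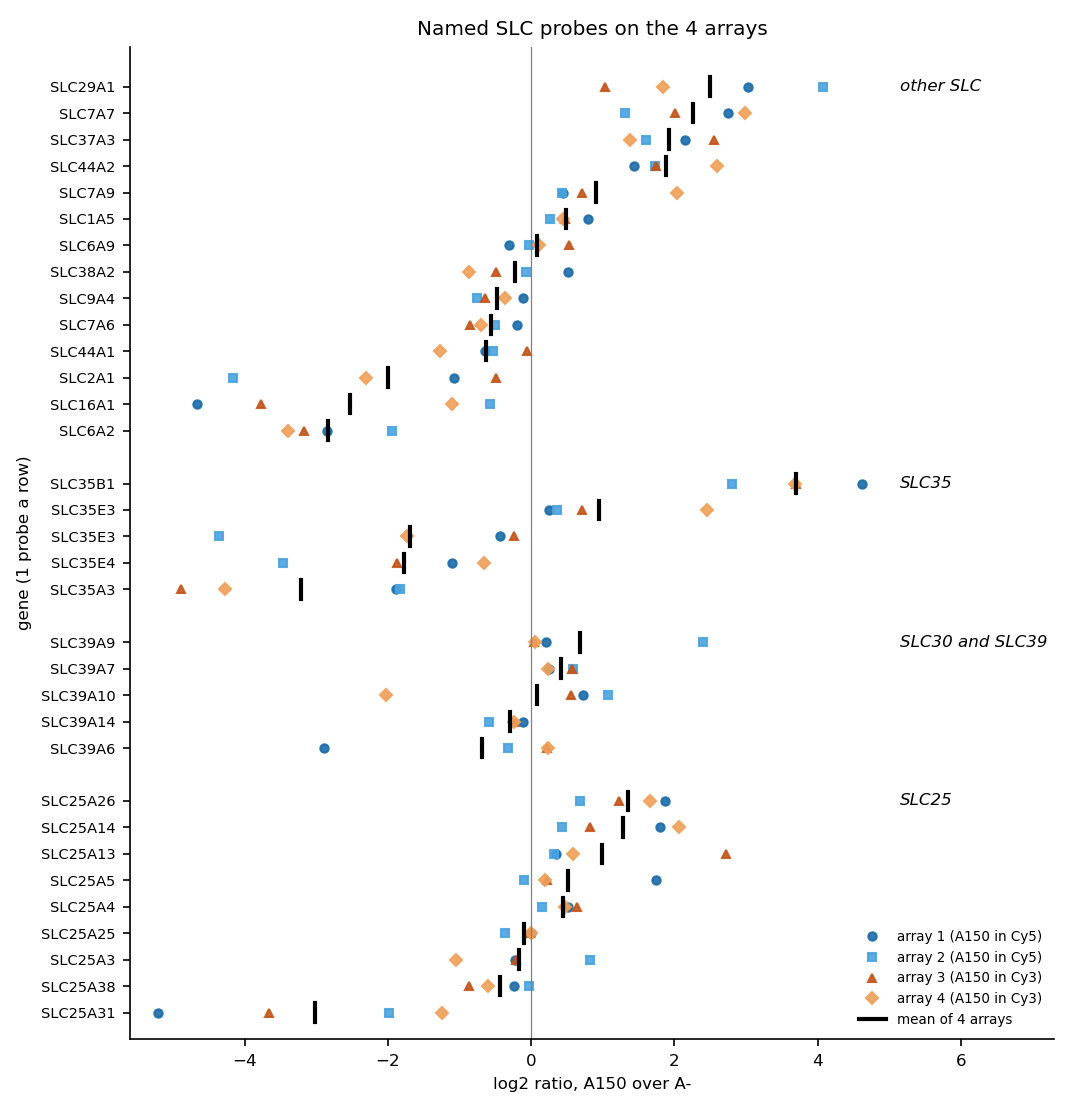
Log2 ratio of A150 over A- (horizontal axis) of each named SLC probe (1 row each, grouped by family) on the 4 arrays (points) with the mean (black bar). SLC35B1, SLC7A7, SLC29A1, SLC37A3 and SLC44A2 lie wholly on the A150 side at over 1, and SLC6A2, SLC35A3 and SLC25A31 wholly on the A- side below -1. Rows not chosen by name were picked for 1 sign on all arrays.

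Among the mitochondrial carriers, the ADP/ATP carriers exchange the ATP made in mitochondria for cytosolic ADP. SLC25A31, the ADP/ATP carrier known in human and mouse for its expression in germ cells, stood furthest toward A-. Its probe EMBV3_08140 had log2 ratios of -5.21, -1.98, -3.66 and -1.24, or -3.02 ± 1.78 (SD, n = 4), 8.12-fold toward A- (limma adjusted p = 0.164). All 4 arrays were on the A- side, a trait for which the probe was chosen, with a spread of over 3 log2 units between them. The spots read 761, 2204, 1946 and 4829 in A150 and 21297, 5536, 11892 and 9673 in A-, in scanner units before normalization. A second probe stood at -1.15 ± 1.22 and another at -1.01 ± 1.62, and each was on the A150 side on array 2, the last also on array 4. SLC25A31 is the 1 SLC25 gene with several probes past the filter whose means were all on the A- side.

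The other ADP/ATP carriers did not follow SLC25A31. SLC25A4 had ratios of 0.52, 0.15, 0.64 and 0.48, or 0.45 ± 0.21 (limma adjusted p = 0.514), on the A150 side on all arrays but above the A- background on a single one, and at -0.11 without normalization. SLC25A5 was too dim to pass the filter, and its 2 probes stood at 0.52 ± 0.83 and 1.18 ± 1.16. SLC25A3, the phosphate carrier that supplies ATP synthesis, had ratios of -0.22, 0.82, -0.22 and -1.05, or -0.17 ± 0.77. Its arrays lay on both sides of 0, and without array 4 its mean was 0.13. The difference between SLC25A31 and the other ADP/ATP carriers was not tested.

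SLC25A26, which imports the methyl donor S-adenosylmethionine into mitochondria, stood on the A150 side by the probe EMBV3_24325, at 1.87, 0.68, 1.22 and 1.67, or 1.36 ± 0.53, 2.56-fold toward A150 (limma adjusted p = 0.144). It has 7 probes, more than any other SLC gene on the array, and all 7 passed the filter. The other 6 had means from -0.68 to 0.83, and each of those 6 was negative on array 2, from -2.87 to -1.20. Of them, 4 were positive on arrays 1 and 4, and the other 2 were negative there, so the probes of SLC25A26 do not share 1 pattern over the arrays. SLC25A14, a carrier related to the uncoupling proteins, stood at 1.28 ± 0.78 (2.42-fold toward A150, limma adjusted p = 0.236). Its probe and the named SLC25A26 probe cleared the background on 3 arrays in A150 and 2 in A-, so they passed the filter only through A150. On array 2 neither spot of either probe cleared the background, so their side there is uncertain. SLC25A13, which exchanges aspartate for glutamate, stood at 0.99 ± 1.16, with 2.72 on array 3 against 0.32 to 0.59 on the others. Its mean was 0.42 without array 3.

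On the A- side after SLC25A31 the SLC25 values were small. SLC25A38, a glycine carrier needed for haem synthesis, had -0.24, -0.02, -0.87 and -0.61 by its named probe (-0.44 ± 0.38), while a brighter probe stood at 0.58 ± 0.87 and another at -0.22 ± 1.06. SLC25A25, an ATP-magnesium and phosphate carrier, had -0.10 ± 0.18, with -0.36 on array 2 and values within 0.03 of 0 on the other arrays. Over all 33 SLC25 probes that passed the filter, the means ran from -3.02 to 1.498, with 4 probes positive and 3 negative on all arrays.

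**Figure D4:**
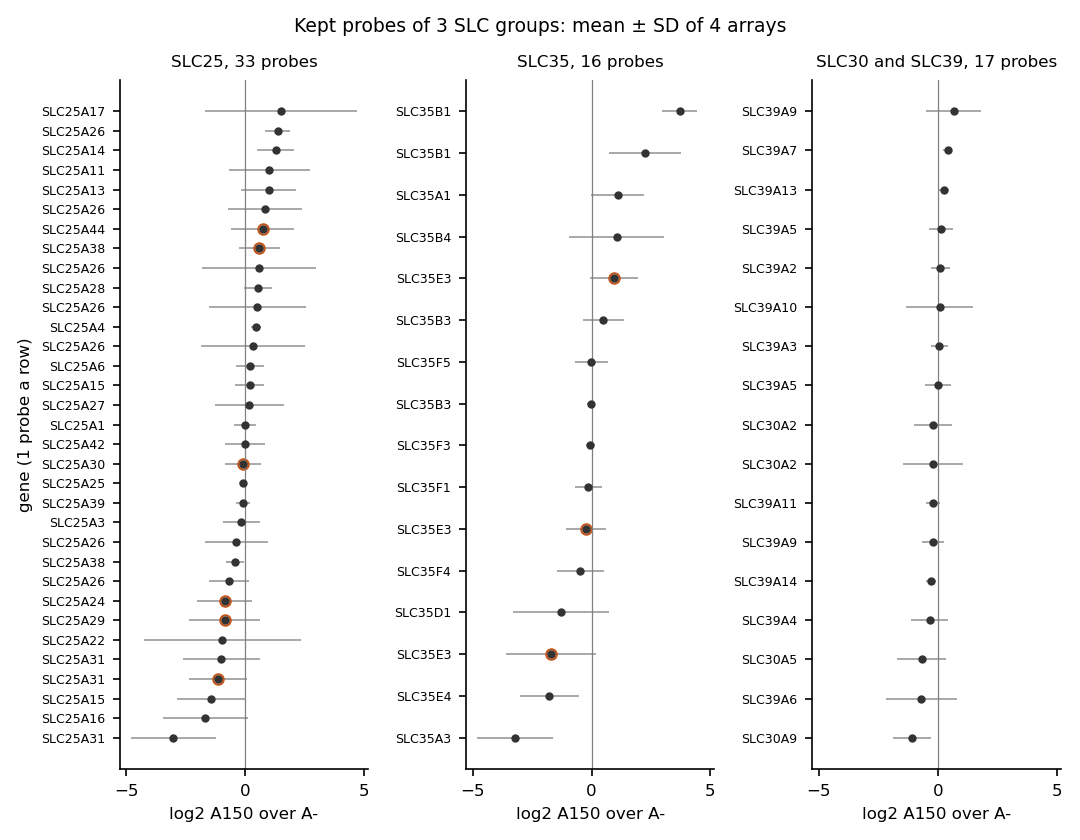
Mean log2 ratio of A150 over A- (horizontal axis, bars ± SD of 4 arrays) of each probe that passed the filter in the SLC25, SLC35 and zinc transporter groups, 1 row per probe, ordered by mean. Orange rings mark probes that cleared the background in every channel. SLC35B1 and SLC35A3 lie at the 2 ends of SLC35, and zinc transporter means lie between -1.09 and 0.68.

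The SLC35 family held the extreme ratios on both sides. SLC35B1, which brings ATP into the endoplasmic reticulum in exchange for ADP, had ratios of 4.62, 2.81, 3.69 and 3.68 by the probe EMBV3_11824. The mean was 3.70 ± 0.74, 13.0-fold toward A150 (limma adjusted p = 0.0569). Its spots read 1470, 2225, 2342 and 10270 in A150 against 810, 1906, 913 and 863 in A-. The A- spot cleared its background on array 4 alone, and the A150 spot on array 2 did not clear its own, so the size of the ratio is uncertain. A second probe of SLC35B1 had 2.91, 0.28, 3.85 and 1.92, or 2.24 ± 1.52. It too cleared the A- background on a single array, and on array 2 neither of its spots cleared the background. At the other end, SLC35A3, which carries UDP-N-acetylglucosamine into the Golgi for glycan branching, had -1.88, -1.83, -4.89 and -4.27. Its mean was -3.22 ± 1.59, 9.29-fold toward A- (limma adjusted p = 0.126). The 2 arrays with A150 in Cy3 were lower than the 2 with A150 in Cy5. Its A- spots, at 4996 to 15773, were above background on all 4 arrays, and its A150 spots on 3.

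The orphan members SLC35E4 and SLC35E3 have no settled cargo. SLC35E4 had -1.10, -3.46, -1.88 and -0.66, or -1.78 ± 1.23 (3.42-fold toward A-, limma adjusted p = 0.239). SLC35E3 was bright in both fractions by 3 probes, yet these had means of -1.69 ± 1.90, -0.24 ± 0.85 and 0.94 ± 1.02. The first had -0.44, -4.36, -0.23 and -1.74, and -0.80 as its mean without array 2. The last had 0.25, 0.36, 0.70 and 2.45, and 0.44 as its mean without array 4. The first was negative and the last positive on all 4 arrays, but both were chosen for 1 sign on all arrays, so this adds no support. The means of the 3 probes lay on both sides of 0. When the test was limited to the 2030 probes of the array that cleared the background in every channel, the limma adjusted p of these 3 probes were 0.149, 0.775 and 0.263.

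Zinc transporters showed small ratios. Zinc taken up during maturation is needed for meiosis in mouse oocytes, where SLC39A6 and SLC39A10 are known importers. SLC39A6 had ratios of -2.89, -0.33, 0.21 and 0.24, or -0.69 ± 1.49 (limma adjusted p = 0.718), and without array 1 its mean was 0.04. SLC39A10 had 0.72, 1.07, 0.56 and -2.03 by its brightest probe, or 0.08 ± 1.42, and its other 2 probes, too dim for the filter, each stood at -0.60. The mean of the brightest probe was 0.78 without array 4 and -0.13, -0.25 and -0.08 without array 1, 2 or 3. Neither importer had a settled side.

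SLC39A7, which releases zinc from the endoplasmic reticulum, had 0.25, 0.59, 0.57 and 0.24, or 0.41 ± 0.19 (1.33-fold toward A150, limma adjusted p = 0.549), and -0.094 without normalization. It passed the filter through A150, and cleared the A- background on a single array. SLC39A14, an importer of zinc and iron, had -0.11, -0.59, -0.22 and -0.24, or -0.29 ± 0.21, and its other 2 probes, never above background, stood at -0.33 and 0.39. SLC39A9, a zinc transporter of the Golgi, stood at 0.68 ± 1.15 (1.60-fold toward A150, limma adjusted p = 0.655), with 2.40 on array 2 against 0.04 to 0.21 on the others, and at 0.10 without array 2. In A- that probe never rose well above background, and its other probes stood at -0.63 ± 0.30 and -0.21 ± 0.47, so the gene had no single direction. The 1 zinc transporter probe with an unadjusted p under 0.05 was that of SLC30A9, a mitochondrial zinc transporter named here after its values were seen. It had -1.47, 0.00, -1.02 and -1.86, or -1.09 ± 0.80 (limma adjusted p = 0.312).

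Among amino acid transporters, SLC7A7, which exchanges cationic for neutral amino acids, gave the clearest values. Its ratios were 2.75, 1.31, 2.01 and 2.99, or 2.26 ± 0.76, 4.80-fold toward A150 (limma adjusted p = 0.0986). Its spots read 4716, 8361, 5379 and 6638 in A150 and 1354, 3973, 1623 and 869 in A-, all above background. On every array the A150 spot was the brighter. In the test limited to the 2030 probes bright in every channel, it was the 1 SLC probe called among 13, at a limma adjusted p of 0.0227 (background there 5.71% toward A150 and 6.31% toward A-). SLC7A6, its close relative, had -0.20, -0.50, -0.85 and -0.70 by the named probe (-0.56 ± 0.28) and 0.65 ± 0.80 and -0.14 ± 0.53 by its other probes, so SLC7A6 had no single direction.

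SLC1A5, a glutamine and neutral amino acid transporter, had a small, even ratio. Its spots read 19419, 34067, 27355 and 21899 in A150 and 9289, 24976, 15046 and 15949 in A-, all above background. Its ratios were 0.79, 0.26, 0.47 and 0.44, or 0.49 ± 0.22 (1.40-fold toward A150, limma adjusted p = 0.473). SLC6A2, known as the noradrenaline transporter of neurons, stood toward A- and was chosen for 1 sign on all arrays. Its values were -2.85, -1.94, -3.18 and -3.39, or -2.84 ± 0.64, 7.15-fold toward A- (limma adjusted p = 0.0636). Its spots read 339, 1563, 1281 and 632 in A150 and 3048, 4331, 5189 and 3252 in A-, and only 1 probe represents the gene. The A150 background levels were 330, 2467, 1079 and 484, so its A150 spots were dim and that on array 2 was below background. Without background correction its mean was -1.91, so the size of the ratio is uncertain.

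SLC6A9, the glycine transporter that controls cell volume in mouse oocytes and early embryos, had -0.31, -0.03, 0.52 and 0.11, or 0.08 ± 0.35 (limma adjusted p = 0.933). Its mean was -0.07 without array 3. This SLC6A9 probe was above background on 1 array in A150 and on 2 in A-, so its ratio rests mostly on dim spots. The other SLC6A9 probe, never above background, stood at -0.25 ± 0.48. SLC38A2, which takes up small neutral amino acids, had -0.22 ± 0.59 by its brightest probe, with 0.16 ± 0.34 and 0.73 ± 1.07 by the others. SLC7A9, which takes part in the uptake of cystine and cationic amino acids, stood at 0.91 ± 0.77 (1.87-fold toward A150, limma adjusted p = 0.389) and never rose well above background in A-. Its array 4 read 2.04 against 0.43 to 0.71 on the others, and its mean was 0.53 without array 4. An A- signal at background throughout was also found for the amino acid transporter SLC38A4, named after its values were seen. It stood at 0.21 ± 0.38 (1.16-fold toward A150, limma adjusted p = 0.807), with -0.29 on array 4.

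Energy substrates reach bovine oocytes as pyruvate, lactate and glucose. SLC16A1, the monocarboxylate transporter for lactate and pyruvate, had -4.66, -0.58, -3.77 and -1.11 by its brightest probe, or -2.53 ± 1.99, 5.78-fold toward A- (limma adjusted p = 0.267). Its other probes stood at 0.54 ± 1.23 and 0.00 ± 2.37. SLC2A1, a glucose transporter found in most cells, had -1.07, -4.16, -0.49 and -2.30 by its brightest probe, or -2.004 ± 1.62, 4.01-fold toward A- (limma adjusted p = 0.285). Its second probe, never above background in A- and too dim for the filter, stood at 1.02 ± 2.72, with 5.00 on array 2 and between -0.95 and 0.45 on the others, and at -0.31 without array 2. Without array 2 the brightest probe stood at -1.29. For each gene the A- side thus rests on 1 probe.

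From families that carry nucleosides, choline or sugar phosphates, 3 genes were named toward A150, each chosen for a positive ratio on all 4 arrays. SLC29A1, the equilibrative nucleoside transporter of the plasma membrane, had 3.03, 4.07, 1.03 and 1.84, or 2.49 ± 1.34, 5.62-fold toward A150 (limma adjusted p = 0.149). The arrays with A150 in Cy5 were above those with A150 in Cy3. SLC44A2, a choline transporter-like protein, had 1.43, 1.73, 1.75 and 2.59, or 1.88 ± 0.50, 3.67-fold toward A150 (limma adjusted p = 0.0921), with other probes at 0.66 ± 0.68 and 0.21 ± 0.20. The named probe and the first of these cleared the A- background on a single array each, and the last was at background in both fractions throughout.

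SLC37A3, a member of the sugar phosphate exchanger family, had 2.14, 1.60, 2.55 and 1.38, or 1.92 ± 0.53 (limma adjusted p = 0.0927). It was above background in A150 on all 4 arrays and never well above it in A-, which gives a bound of at least 3.65-fold higher in A150. That bound sets the mean normalized single-channel signal of A150 against, on each array, the higher of the lowest signal above background and the probe's own A- signal. For the SLC39A9, SLC7A9 and SLC38A4 probes at background in A- the bound equals the mean ratio itself, so none is given. Its other 2 probes stood at -0.33 ± 0.47 and 0.23 ± 0.41. Toward A-, SLC44A1, another choline transporter, stood at -0.63 ± 0.50 and SLC9A4, a sodium and proton exchanger, at -0.47 ± 0.29 (limma adjusted p = 0.453 and 0.511).

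How far the probes of a gene went together was compared next. Of the 23 SLC genes with at least 2 probes that passed the filter, 7 had all their probes on 1 side (30.4%), against 55.2% of the 1618 genes of the whole array with at least 2 such probes. Among genes with exactly 2 such probes the counts were 6 of 20 SLC genes (30%) and 61.0% of all genes. Over all probes, with no filter, they were 24 of 68 SLC genes (35.3%) and 43.9% of all genes. The 7 genes were SLC17A6, SLC23A1, SLC25A31, SLC30A2, SLC35B1, SLC39A5 and SLC44A2. In 4 of them, SLC17A6, SLC23A1, SLC30A2 and SLC39A5, the means of the probes that passed lay between -0.41 and 0.13, and the probes of SLC35B1, SLC44A2 and SLC25A31 lay further out. The probes of SLC35B1 and SLC44A2 passed the filter only through A150, the fraction in which they are high, so that their shared side is in part set by the filter. No gene had probes past an unadjusted p of 0.05 on opposite sides. Probes of a gene share its transcript and are not replicates, and the difference in these shares was not tested.

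**Figure D5:**
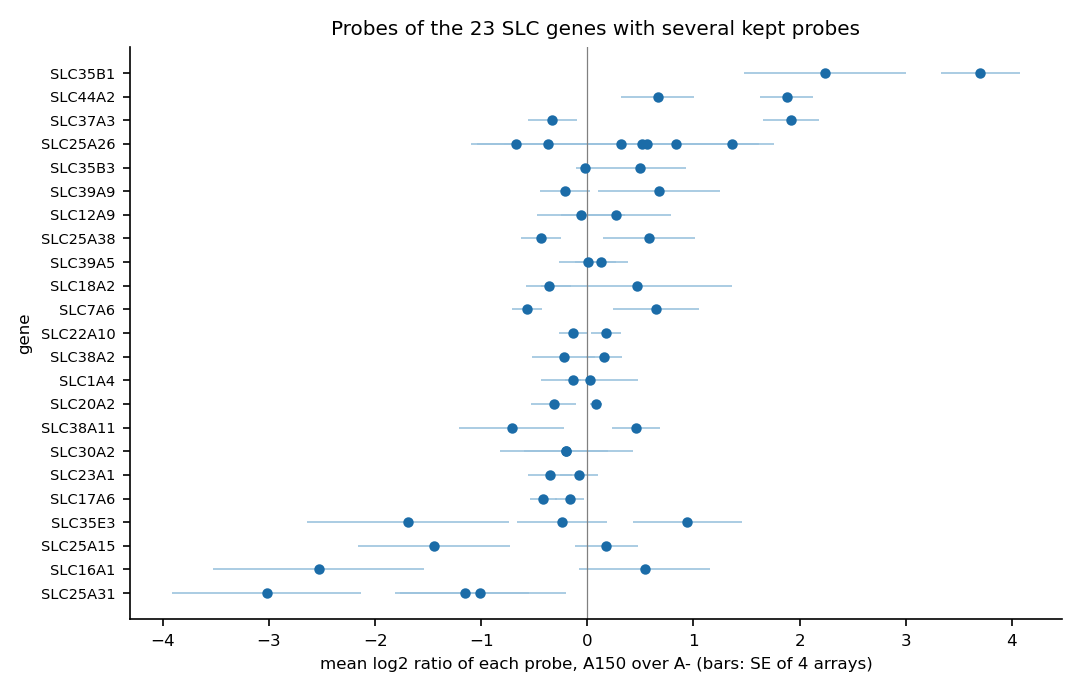
Mean log2 ratio of A150 over A- (horizontal axis) of each probe that passed the filter, for the 23 SLC genes with at least 2 such probes, with bars of ± 1 SE over 4 arrays. SLC35B1 and SLC44A2 lie wholly on the A150 side and SLC25A31 on the A- side, while SLC16A1, SLC35E3, SLC37A3 and SLC25A26 have probes on both sides of 0.

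Carriers and partners whose symbols do not start with SLC were described by the same measure. Of 21 probes of 17 genes, 15 passed the filter and 16 had a positive mean (48.8% of all bovine probes did), and the list's median was 0.27, 0.24, 0.43 and 0.13 on the 4 arrays (0.27 ± 0.13), beside 0.00 ± 0.03 for all bovine probes. Before adjustment 5 of the 15 probes that passed leaned to A150 with a limma p below 0.05 (background 8.03%) and 0 to A- (background 5.45%), and limma called 0 after adjustment. BSG, the membrane chaperone that SLC16A1 needs to reach the cell surface, had 0.53, 3.91, 1.94 and 2.89, or 2.32 ± 1.44 (limma adjusted p = 0.186). It passed the filter through A150, and cleared the A- background on a single array. The mitochondrial pyruvate carrier subunits MPC1 and MPC2 stood at 1.03 ± 0.34 and 0.99 ± 0.69. That MPC1 probe never rose well above background in A- (2.04-fold toward A150, limma adjusted p = 0.18), and a second one, too dim for the filter, stood at 0.38 ± 1.31. MTCH1, an outer-membrane relative of the SLC25 family, stood at 1.57 ± 0.45 and 1.47 ± 1.43 by its 2 probes, and VDAC1, the outer-membrane pore, at 1.65 ± 1.30. The MPC2 probe and the first MTCH1 probe cleared the A- background on 2 arrays each, so they too passed the filter only through A150. The probes with a negative mean were those of UCP2, MT1A, TMEM165 and XPR1, the last at -0.67 ± 0.39 and negative on all 4 arrays.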

How the data were processed

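The deposited scanner files hold unsubtracted spot intensity (mean, median and local background, Cy3 and Cy5), per the file headers. In each file 22 unnamed rows were dropped. RNA was depleted of ribosomal RNA, parted on beads (A150 came off at 75 °C, following a 42 °C step; A- was the flow-through and washes), amplified and labelled, per the labels' protocols. The deposited log2 ratios made by the authors served as an alternative. Their columns correlated at 0.996 to 0.999 with loess ratios of A150 over A- without background correction, so the direction is A150 over A-. Their medians were -0.01, -0.01, 0.02 and 0.01 and their slopes 0.84 to 1.22, and why the scale differs is unknown.

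Spot means were background corrected (normexp, offset 50) and loess-normalized within arrays in limma 3.58.1 under R 4.3.3, with control spots at weight 0 and no normalization between arrays. Signs of arrays 3 and 4 were turned. Ratios were tested against 0 with lmFit and eBayes, Benjamini-Hochberg adjusted over 19453 probes, at a threshold of 0.05, and the fit was tested on simulated data. Each ratio pairs the fractions of 1 pool, so p-values reflect pool and array spread jointly.

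Of 43794 probes, 21790 had 1 platform symbol, 0 several and 22004 none. Of the SLC probes 411 had a symbol current in the RefSeq table of ARS-UCD2.0 and 4 were updated through a synonym. No coordinates or sequences are given, since the array's build and probe sequences were not used here. The named genes were, among probes with 1 sign on all arrays, taken in order of p toward each fraction (4 of SLC25, 3 of SLC35, 2 zinc transporters, 6 others, or as many as there were), every other probe of a named gene, and 8 genes by their brightest probe (SLC25A3, SLC25A5, SLC2A1, SLC6A9, SLC16A1, SLC38A2, SLC39A6, SLC39A10). The members, lists and tests were chosen with earlier results of these data known.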

Additional observations from a re-analysis of the deposited data

Results flagged for a closer look

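In 4 of 38 sets of 4 array values examined (33 named probes and 5 group medians), 1 array lay far from the other 3, by a gap that took up more of the whole range than Dixon's limit allows. For independent, unselected sets of normally distributed values this limit flags about 1 in 20. Many of the probes here were chosen for 1 sign on all arrays and the group medians overlap, so that rate need not hold. SLC25A13 had a log2 ratio of 2.72 on array 3, against 0.32 to 0.59 on the others. SLC25A25 had -0.36 on array 2, a small value set against others within 0.03 of 0. SLC39A9 had 2.40 on array 2, and SLC39A10 had -2.03 on array 4.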

How the results depend on the processing

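The array carries the pairing of the fractions. Read as single channels with no replicate block, limma called 76 probes of the whole array toward A150 and 123 toward A-, against 0 and 12 for the paired ratios, with 1 SLC probe on each side (SLC35B1 and SLC6A2). Spot medians gave 2 and 30 probes of the whole array, with 1 SLC probe toward A150 (SLC35B1). No normalization gave 300 and 355, with 3 SLC probes on each side, and the 2030 probes bright in every channel gave 116 and 128, with 1 SLC probe toward A150 (SLC7A7). Calls toward A- went from 12 to 0 without background correction, with median centring, with the deposited log2 ratios, with a dye term, with no filter, with the unmoderated test and without each array in turn (0 to 0). SLC probes at an unadjusted p below 0.05 toward A150 went from 10 to 1 among the probes bright in every channel and to 6 to 12 without each array in turn (6 without array 1). Toward A- they went from 7 to 11 with no normalization, 11 with no filter, 1 among the bright probes and 5 to 9 without each array.

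Without normalization the medians were -0.19 for SLC25, -0.38 for SLC35, -0.54 for the zinc transporters, -0.38 for the other SLC genes and -0.37 for all SLC, where the median of all bovine probes was -0.34. Among the probes bright in every channel they were -0.33 for SLC25, 0.48 for the other SLC genes and -0.084 for all SLC. Of 33 named probes, 26 kept their sign under every alternative run and 6 did not, while SLC25A5, below the filter, had 1 alternative only, which cannot change its ratio. Those chosen for 1 sign on all arrays could not change it when an array was left out. A dye term, no filter, single channels and the limit to bright probes return the same mean. The count of 26 therefore says little about how stable the signs are. Without normalization the mean was -0.11 for SLC25A4, -0.094 for SLC39A7, -0.38 for SLC6A9 and -0.17 for SLC39A10. Without background correction it was -0.023 for SLC6A9 and -0.11 for SLC39A10, with median centring -0.036 for SLC6A9, and with the deposited log2 ratios -0.035 for SLC39A10. Leaving out each array in turn gave -0.49 to 0.13 for SLC25A3, -0.074 to 0.20 for SLC6A9, -1.002 to 0.043 for SLC39A6 and -0.25 to 0.78 for SLC39A10. The cause was not tested. Aquantile scaling leaves the ratios as they are by construction. The values without each array of the SLC30 median and of the second SLC2A1 probe were added after seeing the data.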
